A study of Drosophila melanogaster with 12 samples.

Results

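The regular nucleosome arrays of early glial progenitors were stretches of the genome where called nucleosomes followed each other at nearly even distances. They were selected on the nucleosome map of the early cells alone. Starts of neighbouring nucleosomes were sorted on each chromosome arm, and an array was a maximal run of at least 5 consecutive distances that each measured 160 to 200 bp. This rule found 4227 arrays, which held 29083 of the 522119 nucleosomes in that map, or 5.57%. The arrays spanned 5.08 Mb of the 120 Mb between the first and last calls of the arms, or 4.22%.

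In chromatin, DNA is wrapped around histone octamers, and a short linker separates each nucleosome from the next. Remodelling enzymes of the ISWI and CHD1 families slide nucleosomes to even spacing, often starting from a fixed barrier such as a nucleosome-free promoter or a bound protein. Linker histone H1 and the length of the linker set how such a string can fold. For a map from many nuclei to show such an array clearly, nucleosomes must be evenly spaced and placed alike from nucleus to nucleus. The rule used here reads called positions only, so a run of even distances does not by itself show such placement.

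Embryos of Drosophila melanogaster were the source of both maps, and nuclei were taken with INTACT, which pulls down nuclei whose envelope carries a tagged RanGap protein. The early cells are called GNP (Gcm-expressed neural progenitor) by the study and GB or early glial cells in the labels. They carried gcm-Gal4 and UAS-mCDGFP over cyo, with the tag UAS-3xFLAG-blrp-mCherry-RanGap, and came from embryos 5 to 7 h after egg laying. The later cells, called glia here and late glial cells in the labels, carried repo-Gal4 with the same UAS-3xFLAG-blrp-mCherry-RanGap over Tm3B and came from embryos 12 to 14 h after egg laying. Both groups therefore share the envelope tag, and they differ in driver, in the marker UAS-mCDGFP, in balancer and in age. The study's methods name no balancer in the flies whose embryos gave the GNP nuclei, and they name Tm3 for the glial line. The gcm gene, a switch for glial fate, is also active in precursors of blood cells, so the driver is not exclusive to glial progenitors. The repo gene encodes a homeodomain protein of most embryonic glia. Embryos were pooled, and each cell type had 1 library.

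Micrococcal nuclease (MNase) digests linker DNA and spares the DNA on the nucleosome. The map of each cell type lists the predicted position of every nucleosome in the dm3 build, and the glia map had 510664 of them. The lists hold positions only. They give no occupancy, score or read count, so the depth of both libraries is unknown, and the cell types could not be checked against marker genes. All positions stand as the lists print them, with an uncertainty of 1 bp, because the values do not show whether counting began at 0 or at 1. The dyad is the midpoint of a nucleosome. With 1 library per cell type no test was possible, and every difference between GNP and glia compares 2 libraries. Intervals in brackets are 95% Wilson intervals for shares. They cover counting error only, and neighbouring nucleosomes are not independent.

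Most arrays were close to the minimum length. Of the 4227 arrays, 2290 (54.2%) had exactly 5 distances, 990 (23.4%) had 6 and 496 (11.7%) had 7. A further 451 arrays (10.7%) had 8 or more, 98 (2.32%) had 10 or more, and 10 had 13 or more. The longest runs had 15 distances and therefore 16 nucleosomes. Array spans ran from 963 to 2897 bp with a median of 1079 bp (quartiles 1040 and 1257 bp). Just outside the rule stood 5108 runs of exactly 4 distances, so the minimum cut through a steep part of the distribution. Runs on both sides of it were spaced alike. The mean distance was 179.19 bp (SD 11.33) in runs of 4 and 179.17 bp (SD 11.30) in runs of 5.

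The background for these runs is the share of all neighbour distances in the band. In GNP 40.6% of 522113 distances measured 160 to 200 bp, and the arrays held 11.7% of these 212081 distances. The band itself was used by the rule, so this share is only a description. In glia 35.0% of 510658 distances were in the band, and the same rule applied to the glia map gave 1902 arrays. The ratio of run counts between the maps grew with run length. A larger share of single distances in the band by itself makes this ratio grow with length. How far the growth went beyond that was not tested. Runs of at least 1 distance numbered 123053 in GNP and 114724 in glia, a ratio of 1.07. The ratio was 2.22 for runs of at least 5, 4.51 for runs of at least 8 (451 against 100) and 6.53 for runs of at least 10 (98 against 15). Beyond 10 distances the counts were small and the ratio no longer grew steadily. At the far end 2 GNP runs and 1 glia run reached 15 distances.

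Up to a length of 6 distances, a run in GNP was also more likely to go on the longer it already was. After 1 distance in the band, 41.0% of GNP runs continued with another. The share was 43.8% after 3 distances, 45.8% after 5 and 48.9% after 6. It was 47.9% after 8, 45.4% after 9 and 35.7% after 10, where 98 runs were left. In glia the shares after 1, 3, 5, 6 and 8 distances were 35.9%, 35.8%, 37.8%, 37.6% and 38.0%. Up to 9 distances the share was higher in the early map, and after 10 distances it was 40.0% for the 15 glia runs left. Since GNP was also the map with more calls, depth, calling and cell type cannot be told apart in these counts.

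**Figure D1:**
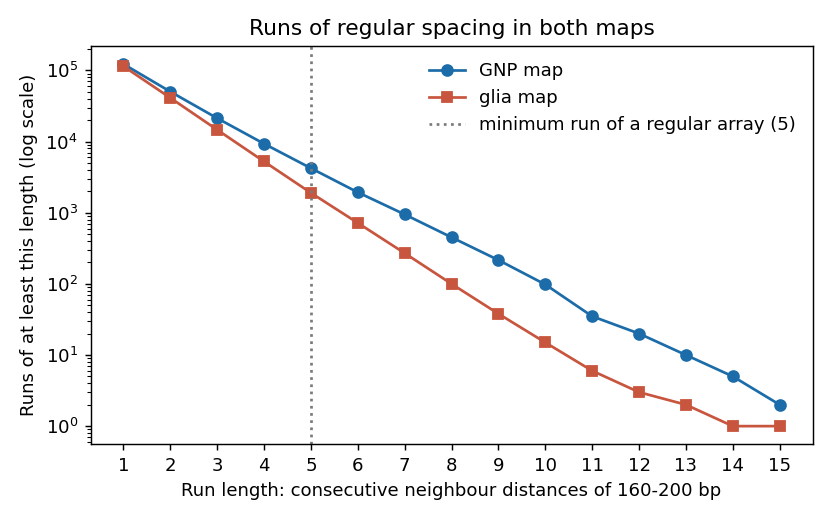
Number of runs of at least a given length, counted in consecutive neighbour distances of 160 to 200 bp, for the GNP and glia maps (1 library each), on a logarithmic axis. Runs of at least 5 distances are the arrays, 4227 in GNP and 1902 under the same rule in glia, and the ratio between the maps is larger at each length up to 10 distances, beyond which counts are small (2 GNP runs and 1 glia run at 15).

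Within arrays the spacing filled the middle of the allowed band. The 24856 array distances had a median of 179 bp (quartiles 170 and 188 bp) and a most frequent value of 177 bp. Band distances that were not part of an array, 187225 in all, had a median of 178 bp (quartiles 169 and 188 bp). The distance at an end of an array had a median of 178 bp and an interior distance 179 bp. Spacing inside an array was thus nearly that of any band distance, and what set an array apart was that such distances came in a row. A nucleosome covers 147 bp, so a spacing of 179 bp leaves a linker of ordinary length.

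Arrays differed from each other in mean spacing and evenness. The mean distance of an array ranged from 163.2 to 195.2 bp, with a median of 179.2 bp and quartiles of 176.2 and 182.4 bp. The SD of the distances within an array ranged from 2.00 to 21.02 bp with a median of 11.1 bp (quartiles 9.04 and 12.9 bp). The rule limits both quantities from above and below, so these ranges describe the members and carry no comparison.

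The arrays lay on all 6 arms, in unequal density. Arm 3R had the most, with 1128 arrays, 40.4 per Mb, and 6.29% (6.15 to 6.42) of its GNP nucleosomes inside arrays. Arm 2R followed with 811 arrays, 38.4 per Mb and 6.07% (5.92 to 6.23). Arms 3L and 2L had 836 and 764 arrays, 34.1 and 33.2 per Mb, and shares of 5.44% (5.31 to 5.58) and 5.30% (5.16 to 5.44), whose intervals overlap. The X chromosome had 663 arrays, 29.6 per Mb and 4.72% (4.59 to 4.86). The small chromosome 4, which is largely heterochromatic, had 25 arrays, 18.9 per Mb and 2.98% (2.55 to 3.47). Its longest array had 7 distances. The order of the arms was also that of their share of distances in the band, from 41.8% on 3R, 41.0% on 2R, 40.5% on 3L and 40.4% on 2L to 39.4% on X and 34.8% on 4.

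Arrays were spread along the arms rather than collected in a few blocks. The distance from an array to the next on the same arm had a median of 16.4 kb (quartiles 6.27 and 36.3 kb) and reached 314 kb. In 73 of 4221 neighbouring pairs (1.73%) only 1 distance outside the band stood between the arrays, and in 25 of these it missed the band by at most 10 bp.

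In windows of 100 kb the share of GNP nucleosomes inside arrays had a median of 5.20% (quartiles 2.98% and 7.64%) over 1194 windows with at least 200 GNP nucleosomes. It exceeded 10% in 120 windows. The highest share was at chr2L:13100001-13200000, where 83 of 478 nucleosomes, 17.4% (14.2 to 21.02), lay in 12 arrays. Next came chr3R:10700001-10800000 with 81 of 468 (17.3%) in 11 arrays and chr3R:8200001-8300000 with 71 of 430 (16.5%) in 11 arrays. Windows chr3L:15500001-15600000, with 73 of 448 (16.3%) in 10 arrays, and chr3R:18300001-18400000, with 76 of 470 (16.2%) in 12 arrays, completed the first 5. The intervals of these 5 windows overlap, so their order is not settled by the counts.

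The glia values of these 5 windows differed widely. Over the whole glia map 12567 nucleosomes, 2.46%, lay in regular glia arrays. Of their glia nucleosomes, 12 of 443 (2.71%), 32 of 450 (7.11%), 9 of 407 (2.21%), 0 of 435 and 20 of 453 (4.42%) lay in regular glia arrays, in the order given above. The second and the fifth window were above the share of the whole glia map, the first and the third were near it, and the fourth had none. At the other end, 62 windows (5.19%) held no array nucleosome at all. They fell on every large arm, 11 of 227 windows on 2L, 13 of 210 on 2R, 15 of 243 on 3L, 5 of 279 on 3R and 18 of 222 on X, and on none of the 13 windows of chromosome 4. The empty windows were not evenly spread on every arm. On 2R many lay near the low-coordinate end, and on 3L many lay near the high-coordinate end. Most windows near these ends also held fewer called nucleosomes in both maps than windows elsewhere on the arm. On 2L and 3R the empty windows were scattered along the arm. This placement was not tested. Since 62 windows tie at 0, no lowest window is named.

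Across the 1194 windows, the GNP array share had a Spearman correlation of 0.28 with the number of GNP nucleosomes and 0.17 with the number of glia nucleosomes. It had a correlation of 0.24 with the share of glia distances in the band and of 0.08 with the glia array share. These are descriptions, since all windows share the same 2 libraries and nucleosome number per window is part of each measure. In the 299 windows with the lowest GNP array share the median glia band share was 34.1%, and in the 299 with the highest it was 35.9%. The mean glia array share was 2.14% and 2.70%, and the median numbers of GNP nucleosomes were 437 and 456. The median numbers of glia nucleosomes were 429 and 442. Windows rich in arrays were thus slightly denser in calls in both maps, and the part of call density in the other values was not tested.

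The longest arrays show what the rule selected. The first, chr3L:18143767-18146663, had 16 GNP nucleosomes. Its 15 distances were 167, 179, 188, 181, 188, 179, 194, 173, 198, 198, 168, 188, 168, 189 and 192 bp, a mean of 183.3 bp (SD 10.7). The GNP distances just beyond its ends were outside the band, 223 bp on the left and narrowly too short on the right. In glia the same span held 13 dyads, separated by 167, 296, 163, 269, 239, 227, 186, 338, 210, 270, 171 and 161 bp, so 5 of 12 distances were in the band. Of these, 167 bp stood at the left end and 171 and 161 bp at the right end, while 163 and 186 bp lay among longer distances in between. From left to right, the closest glia dyad lay at -2, -2, 115, -73, -91, -10, 50, 83, -90, -102, 38, 80, -108, -6, -24 and -55 bp from the GNP dyads, where a negative value is to the left. Only 4 of 16 GNP dyads had a glia dyad within 10 bp.

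The second, chr3L:5813622-5816491, also had 15 distances, with a mean of 181.5 bp (SD 11.7), and ended at distances of 201 and 237 bp. The first of these was 1 bp outside the band. Its 16 nucleosomes faced 13 glia dyads, whose distances were 213, 174, 197, 159, 225, 337, 295, 170, 192, 265, 187 and 186 bp. Here 7 of 16 GNP dyads had a glia dyad within 10 bp and 1 was lost, that is, overlapped no glia nucleosome by more than 20 bp.

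Of the 3 arrays with 14 distances, chr3R:21677575-21680252 differed most from the glia map. Its GNP distances averaged 180.8 bp (SD 9.95), while the glia distances in the span were 255, 321, 279, 172, 228, 380, 153, 311 and 279 bp. The 15 GNP nucleosomes faced 10 glia dyads, and none of these lay within 10 bp of a GNP dyad. Array chrX:7615505-7618069 was the most tightly spaced of the first 5, with a mean of 172.7 bp (SD 10.1). It faced 12 glia dyads, with 4 of 11 glia distances in the band and 2 of 15 dyads within 10 bp.

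Array chr3R:20183766-20186386, with a mean of 176.7 bp (SD 11.6), was the one among the first 5 with a regular glia stretch. The 13 glia dyads were separated by 174, 174, 172, 181, 167, 199, 267, 183, 229, 201, 255 and 177 bp, so the first 6 distances met the array rule. The glia array covered 43.1% of the GNP span. Regular spacing there did not mean equal positions. From left to right, the closest glia dyad lay at -89, -34, -24, -21, -12, -3, -23, -2, 101, -81, -74, -16, -10, 51 and 36 bp, and 3 of 15 GNP dyads had a glia dyad within 10 bp.

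**Figure D2:**
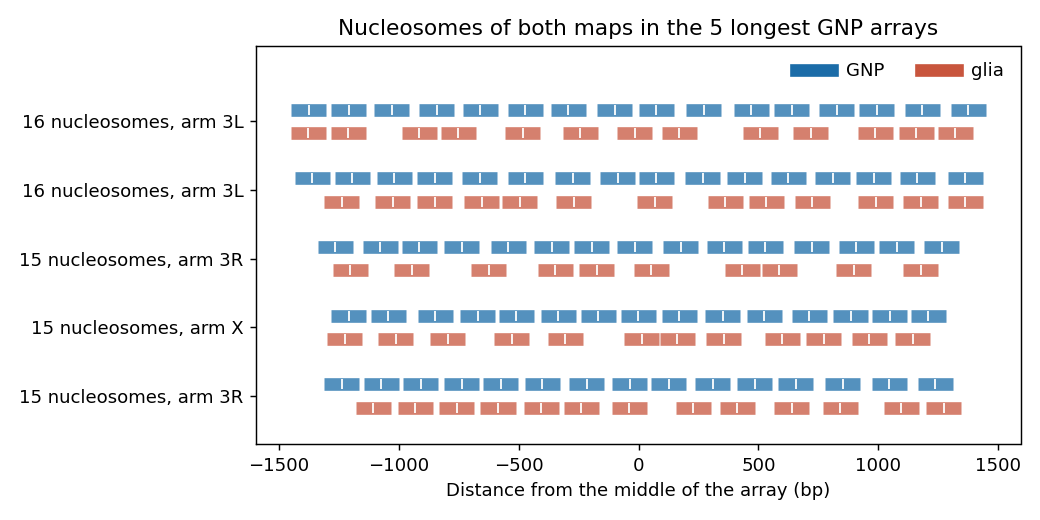
Called nucleosomes of GNP (blue) and glia (red) along the 5 longest GNP arrays, by distance in bp from the middle of each array. Each pair of rows is 1 array, each box 1 nucleosome and each white line its dyad, and the GNP rows have 15 or 16 boxes against 10 to 13 in glia.

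The 3 most even arrays of 8 or more distances all had 8, and the relation of evenness to length was not tested. Among the 451 arrays with 8 or more distances, the most even was chr3R:8047410-8048971. Its 8 distances were 174, 177, 174, 178, 174, 186, 179 and 173 bp (mean 176.9 bp, SD 4.29). The 8 glia dyads in this span were separated by 156 to 274 bp, beginning with 245, 198 and 274 bp, and 3 of 9 GNP dyads had a glia dyad within 10 bp. The evenness of the early array was not seen in the later map at this place. Since the array was chosen for its evenness in GNP alone, a less even glia stretch follows largely from that choice.

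The second most even, chr3L:17129412-17130942, had distances of 174, 172, 170, 169, 176, 181, 166 and 176 bp (mean 173.0 bp, SD 4.75). In glia it was kept in its middle. Glia distances there were 239, 178, 170, 161, 179, 189 and 327 bp, and a regular glia array covered 63.4% of the span. The offsets of the closest glia dyads were -68, -3, 3, 3, -5, -2, 6, -160 and -9 bp. Thus 7 of 9 dyads had a glia dyad within 10 bp, while 1 dyad near the right end was lost. The next, chr3L:10117859-10119365, had a mean of 170.0 bp (SD 5.01), 7 glia dyads and 3 of 9 dyads within 10 bp.

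No array with 8 or more distances had every dyad within 10 bp of a glia dyad, and 7 of the 451 (1.55%) had none within 20 bp. Stretches of equal length outside arrays were not counted, so these counts have no background and do not set arrays apart. The longest of these 7 were chr3R:10793955-10795863 and chr3R:2206411-2208297, each with 10 distances, and chr2L:11201907-11203502 with 8. In chr3R:10793955-10795863 the glia offsets were -82, 56, -108, -60, 76, 78, 80, -99, -44, 68 and 31 bp. This glia stretch was itself partly regular, with distances of 237, 161, 162, 174, 180, 217, 278 and 161 bp. In chr2L:11201907-11203502 the offsets were -110, -58, 68, 110, -68, -83, -86, -65 and -49 bp, and the glia distances were 303, 225, 170, 179, 211 and 179 bp. Short regular stretches thus stood in glia between the positions used in GNP.

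At the opposite extreme, 12 arrays of any length (0.28%) had a glia dyad within 10 bp of every GNP dyad, a count likewise without a background. The longest of them, named after its values were seen, was chr2L:1716027-1717413. Its 7 GNP distances were 194, 164, 166, 162, 187, 175 and 192 bp, and the glia distances were 200, 150, 177, 163, 185, 181 and 183 bp. All 8 offsets lay between -6 and 10 bp. In chr2L:13674143-13675211, also named afterwards, the GNP distances of 185, 184, 185, 190 and 178 bp faced glia distances of 189, 196, 175, 185 and 184 bp, and both maps met the array rule over the whole span.

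Over all arrays, GNP dyads were placed on glia dyads about as often as elsewhere. Of the 29083 array dyads, 8317 or 28.6% (28.1 to 29.1) had a glia dyad within 10 bp. The share over the whole GNP map was 28.7%, and the difference between array dyads and all others was -0.06 percentage points (-0.60 to 0.47). Exactly the same position was found for 482 array dyads, 1.66% (1.52 to 1.81), against 1.73% over the whole map. At 10 bp or less, array membership made no difference that the counts could resolve. Without the first and last dyad of each array, a count chosen after the data were seen, the share was 29.3%.

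At 20 bp a small difference appeared. The share was 41.5% (40.9 to 42.1) for array dyads and 40.3% over the whole map, and array dyads exceeded all others by 1.25 percentage points (0.66 to 1.83), with the array value higher on 4 of 6 arms. The median distance to the closest glia dyad was 34 bp for array dyads and 38 bp for the others. Neither difference has a replicate check.

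Lost nucleosomes were more frequent in arrays. A GNP nucleosome was called lost where it overlapped its closest glia nucleosome by 20 bp or less. This held for 1673 array nucleosomes, 5.75% (5.49 to 6.03), against 4.47% over the whole map. Array nucleosomes exceeded all others (4.39%) by 1.36 percentage points (1.09 to 1.63), a ratio of 1.31. The array value was higher on 5 of 6 arms, with chromosome 4 the exception, where only 4 array dyads were lost. Arrays hold no GNP gaps by the rule, so a glia gap inside an array always faces called GNP nucleosomes, and the selection itself raises the lost share there. The part of this in the difference was not tested. The difference also depended on the definition. At an allowed overlap of 73 bp, 29.6% of array nucleosomes and 29.5% of the others were lost.

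Array nucleosomes were also more often inside a regular glia array. This held for 850 of them, 2.92% (2.74 to 3.12), against 1.73% over the whole map. The difference from all others (1.66%) was 1.26 percentage points (1.06 to 1.46), a ratio of 1.76, and the array value was higher on 6 of 6 arms. Regular places in GNP therefore overlapped regular places in glia more than other places did, while most array nucleosomes had an irregular surrounding in glia.

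These values changed with run length in different ways. The lost share was 3.80% for GNP dyads in no run, 5.14% in runs of 4, just outside the rule, 5.41% in runs of 5, 6.71% in runs of 8 and 6.43% (5.16 to 8.0) in runs of 10 or more. The share within 10 bp stayed between 27.5% and 29.9% at every run length. The share inside a regular glia array was 1.42% without a run, 2.44% in runs of 4, 2.77% in runs of 5 and 3.97% in runs of 8. It was 0.957% (0.535 to 1.70) in runs of 10 or more, where 11 of 1150 dyads counted. Nothing in these shares set runs of 5 apart from runs of 4.

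**Figure D3:**
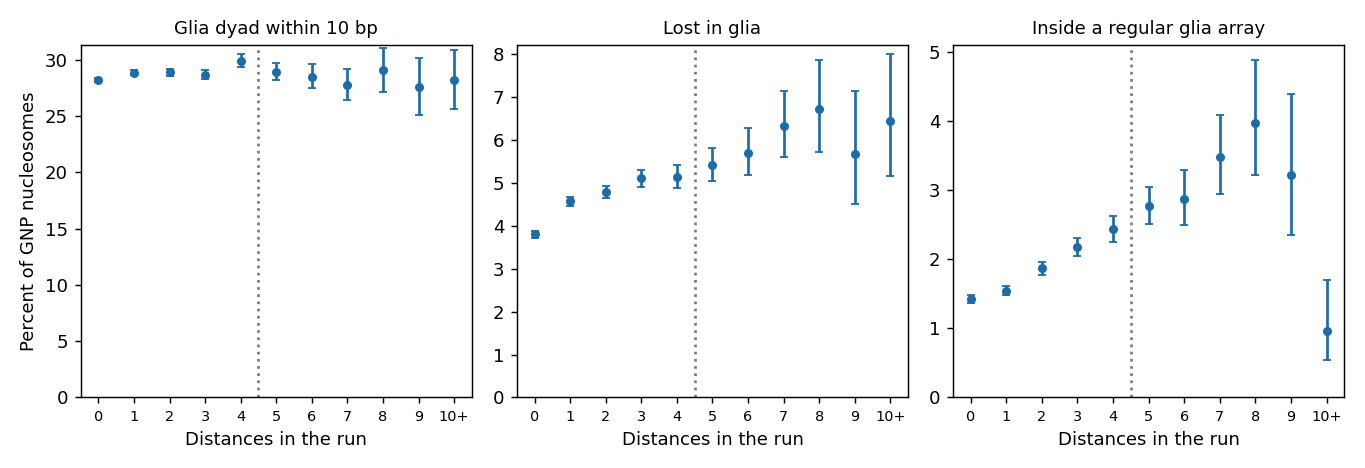
Shares of GNP nucleosomes in percent by the length of the run they belong to, with 95% Wilson intervals for counting error, for dyads within 10 bp of a glia dyad, lost dyads and dyads inside a regular glia array (each panel has its own axis from 0). The dotted line is the array minimum. The share within 10 bp stays between 27.5% and 29.9%, while the lost share is 3.80% without a run and 6.71% in runs of 8.

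The numbers of glia nucleosomes in the array spans are a description, since the spans were chosen for close GNP calls. The array spans contained 23627 glia dyads for 29083 GNP dyads, 0.812 glia dyads per GNP dyad, against 0.988 outside. GNP density inside arrays is fixed by the rule, so this ratio is lower there by selection. The glia density was 4654 glia dyads per Mb inside arrays and 4227 outside. The outside includes stretches with few or no calls, which the rule keeps out of arrays, as 3 glia distances inside arrays and 2526 elsewhere exceeded 500 bp. The density difference is therefore not free of the selection. The GNP density was 5729 per Mb inside arrays and 4279 outside.

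Each span also begins and ends on a GNP nucleosome, so a lower glia number follows largely from the choice of the spans. Glia had fewer dyads than GNP in 3643 arrays (86.2%), the same number in 583 (13.8%) and more in 1. The deficit was 1 dyad in 2054 arrays (48.6%), 2 dyads in 1376 (32.6%) and 3 or more in 213 (5.04%). Lost nucleosomes per array have no background here, since stretches of equal length outside arrays were not counted. No nucleosome was lost in 2777 arrays (65.7%), 1 in 1236 (29.2%) and 2 or more in 214 (5.06%). Among the 451 arrays with 8 or more distances, 223 (49.4%) had at least 1 lost nucleosome, and these arrays also have more nucleosomes to lose. Every dyad lay within 20 bp of a glia dyad in 92 arrays (2.18%), and none did in 286 (6.77%), again without a background count.

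Glia spacing was more regular inside the GNP arrays than elsewhere. With both glia dyads inside an array span, 6980 of 16237 distances, 43.0% (42.2 to 43.8), measured 160 to 200 bp. Elsewhere the share was 34.8%, and over the whole glia map 35.0%. The median was 197 bp (quartiles 173 and 245 bp) inside and 210 bp (179 and 259 bp) elsewhere, and the most frequent value was 173 and 177 bp. Part of this difference comes from the count itself, because a short span cannot hold long distances. When a glia distance was counted wherever its lower dyad fell inside the span, the share was 40.2% (39.5 to 40.8) and the median 201 bp, with 34.8% and 210 bp elsewhere. By arm only the first count, with both glia dyads inside the span, was made. In it the share inside was above that elsewhere on 6 of 6 arms. It ran from 42.0% against 35.0% on 2R to 45.6% against 34.8% on 2L.

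With both glia dyads inside the span, the excess in the band was matched by fewer long distances. Glia distances of 201 to 295 bp made up 36.7% inside arrays and 43.4% elsewhere, while distances under 160 bp made up 10.1% and 8.45%. Short spans hold fewer long distances, so part of this contrast also comes from the count. These classes were not counted by the lower dyad. A gap was counted where at least 150 bp free of called nucleosomes separated neighbours that were at most 500 bp apart. Such gaps stood in 1656 glia distances inside arrays, 10.2% (9.74 to 10.7). The share was 12.8% elsewhere and 12.7% over the whole glia map. Counted by the lower dyad it was 11.8% (11.4 to 12.2) inside arrays. The median gap length was 175 bp inside arrays and 176 bp elsewhere. Gaps of glia were thus somewhat fewer within GNP arrays. The rule keeps GNP gaps out of arrays, and some gaps are shared by the maps, so this difference is not free of the selection either.

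**Figure D4:**
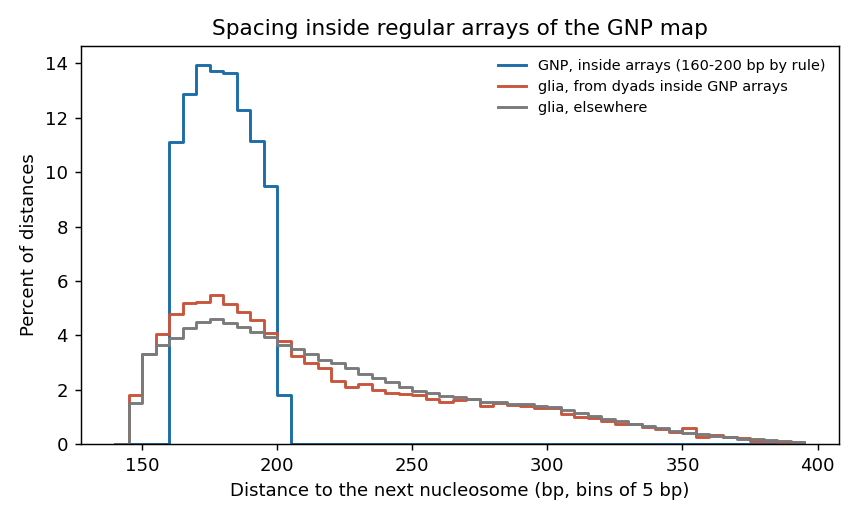
Distribution of neighbour distances in bins of 5 bp, as percent of distances in each class, for GNP inside arrays, for glia with the lower dyad inside a GNP array and for glia elsewhere. The GNP curve is bounded at 160 and 200 bp by the rule, and glia has more of its distances in that band inside arrays, 40.2% against 34.8%.

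The reverse view gave the same direction. GNP distances with their lower dyad inside the 1902 regular glia arrays were in the band in 46.9% of cases, against 40.5% elsewhere. Glia dyads of these arrays had a GNP dyad within 10 bp in 32.9% (32.0 to 33.7) of cases, against 29.2% elsewhere. Placement within 10 bp thus differed for the glia arrays, whereas for the GNP arrays the counts resolved no such difference.

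Few arrays were regular in both cell types. A regular glia array covered at least 50% of the span in 145 GNP arrays, 3.43% (2.92 to 4.02), and the whole span in 17. Regular glia arrays were rare everywhere, holding 2.46% of all glia nucleosomes and 1.73% of all GNP dyads. Those shares count nucleosomes and not spans, so they are only a rough background. In the 145 GNP arrays 53.8% (50.7 to 56.9) of the 1011 GNP dyads had a glia dyad within 10 bp, and 2.08% were lost. Median spacing in them was 178.8 bp on the early map and 179.3 bp on the later one. Glia was wider in 80 of them, and the median difference over all was 0.66 bp. Equal positions were frequent there but not general, since 8 arrays had every dyad within 10 bp and 5 had none within 20 bp. These arrays were picked on both maps, so their agreement is a description. The longest of them had 9 distances, and 19 had 8 or more.

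The repeat of the arrays was also seen in the distances from GNP dyads to glia dyads. The rule spaces the GNP neighbours of an array dyad evenly, and some of these neighbours share their position with glia, so peaks of glia dyads at the array repeat follow from the selection. In counts of all glia dyads by distance from GNP array dyads, relative to the mean glia density, the value was 3.66 at 0 bp. Further peaks stood at 181, 358 and 536 bp with heights of 2.24, 1.82 and 1.55. Around GNP dyads outside arrays the value at 0 bp was 3.77, and the peaks stood at 177, 382 and 573 bp with heights of 1.53, 1.13 and 1.10. The lower peaks there also follow from the rule, since dyads outside arrays have no long run of even neighbours.

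Glia dyads inside array spans showed repeats among themselves at 174, 359 and 547 bp, with peak to trough ratios of 3.77, 1.65 and 1.34. Elsewhere the repeats stood at 177, 390 and 562 bp, with ratios of 3.09, 1.23 and 1.08. These glia repeats are not free of the selection either, because part of the glia dyads share positions with the arrays.

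**Figure D5:**
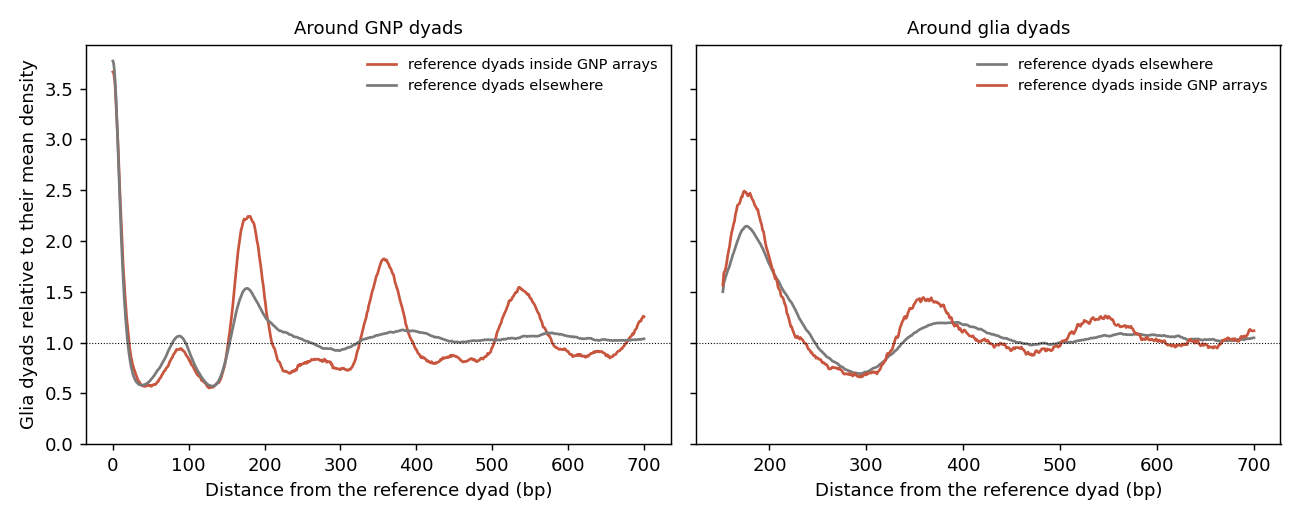
Density of glia dyads, relative to the mean glia density, by distance in bp from GNP dyads and from other glia dyads, inside arrays and elsewhere (counts smoothed over 11 bp). Around GNP array dyads the peaks at 181, 358 and 536 bp are 2.24, 1.82 and 1.55 high, against 1.53, 1.13 and 1.10 for the corresponding peaks around dyads outside arrays, a contrast that the array rule itself brings about.

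Neighbouring dyads of an array did not shift together more than others. The offsets of 2 neighbouring GNP dyads to their closest glia dyads agreed within 10 bp in 19.9% (19.4 to 20.4) of the 24856 array distances and in 20.2% of the band distances elsewhere. Where the first dyad was offset by 21 to 72 bp, the neighbour was offset to the same side in 59.9% (58.8 to 61.1) of cases inside arrays and 59.7% elsewhere. These pair counts thus showed no excess of joint shifts inside arrays over other band distances. They do not measure shifts of whole arrays, which were not tested.

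The 8454 array ends were examined for what lay beyond the array. The first distance beyond an end had a median of 231 bp, against 238 bp for other distances outside the band. It held a gap at 1605 ends, 19.0% (18.2 to 19.8), while 19.8% of all GNP distances outside the band held one. An array had a gap at both ends in 153 cases (3.62%), at 1 end in 1299 (30.7%) and at neither in 2775 (65.6%). Arrays were therefore not bordered by gaps more often than the background. At a gap minimum of 200 bp the shares were 6.0% at array ends and 5.51% at other distances outside the band, so the small difference turned its sign.

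Narrow misses were more frequent at array ends. The distance beyond the end missed the band by at most 10 bp, measuring 150 to 159 or 201 to 210 bp, at 27.1% (26.2 to 28.1) of ends and at 24.1% (23.9 to 24.2) of other distances outside the band. The excess lay at 201 to 210 bp, with 14.1% against 11.2%. At these ends the spacing left the band by only a few bp.

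Where an array end did meet a gap, the end nucleosome was lost less often than at other ends. At the 1605 ends bordered by a gap, the first nucleosome was lost in glia in 3.05% (2.32 to 4.01) of cases, the second in 5.92% (4.87 to 7.18) and the next one inward in 5.55%. At the 6849 ends without a gap these shares were 5.12%, 6.03% and 6.25%. The share within 10 bp was 27.2%, 28.8% and 29.0% from a gap inward, and 26.9%, 28.7% and 30.3% from other ends. Among array ends, being next to a gap thus went with fewer lost nucleosomes and not with closer placement. GNP nucleosomes next to gaps outside arrays were not compared. The lost share was also low, 3.80%, for GNP dyads in no run. The gaps at array ends were shared with glia no more than other gaps. The middle of a GNP gap lay in a glia gap for 393 of 1591 gaps at array ends, 24.7% (22.6 to 26.9). For the other gaps this share was 24.9%.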

How the data were processed

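MNase-seq lists of 1 GNP and 1 glia library were used. The series' 10 ChIP-seq samples were not analysed here. According to its methods section and the submitters' processing notes, the authors aligned reads to dm3 with Bowtie 0.12.7, kept uniquely mapped reads and predicted nucleosomes with GeneTrack, whose settings are not given in the sources used here. The notes also name bedtools, with no role. The deposited values are positions (arm, start and end) in 3 columns, with end minus start always 146 bp and no score, signal or count, so low calls could not be filtered.

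Distances, runs and closest dyads were computed with Python 3.11.15, NumPy 2.4.6, pandas 2.3.3 and SciPy 1.17.1, and plotted with matplotlib 3.10.9. The scripts were tested on simulated data. Tolerances of 0, 10 and 20 bp, a lost nucleosome (overlap of at most 20 bp), gaps of at least 150 bp, distances over 500 bp left out as gaps, 100-kb windows with at least 200 GNP nucleosomes, and 95% Wilson intervals were used. Overlaps and gaps were computed with the listed interval of 146 bp, so a closest dyad at least 126 bp away counted as lost. The interval of a difference between 2 shares is a normal one for counting error. Pair profiles were smoothed over 11 bp.

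Named regions follow a rule: the 5 longest arrays, then, among arrays of 8 or more distances, the 3 with the smallest SD and the 3 longest with no dyad within 20 bp of glia, and the 5 windows with the highest array share. The rule also asked for the 5 longest arrays of 8 or more distances with every dyad within 10 bp, and none existed. Members, lists and rules were chosen with earlier results of these data known. No dm3 genome or annotation was used here, so genes at the arrays were not analysed here and no sequence is shown. The alternatives tried were other bands, run minimums, tolerances, overlaps and gap lengths, and each arm left out.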

Additional observations from a re-analysis of the deposited data

How the results depend on the processing

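Under 38 alternatives to 6 results, 20 values moved by less than their counting interval (for the number of arrays, by less than 1.5 times) and 18 moved by more. The number of arrays (4227) was 1584 with the band narrowed by 5 bp at each side, 8041 with it widened by 5 bp, 9335 with at least 4 distances and 451 with at least 8. The share of array dyads within 10 bp of glia (28.6%) was 1.66% at 0 bp and 41.5% at 20 bp. The lost share (5.75%) was 2.78% with no overlap allowed, 29.6% with up to 73 bp and 6.37% in arrays of 8 or more distances. The share of glia distances of 160 to 200 bp (43.0%) was 41.1% when counted by the midpoint and 35.3% with the band so narrowed for arrays and glia distances, where it was 27.1% elsewhere. The share of arrays overlapping a glia array (3.43%) was 4.78% for any overlap, 1.56% for 80% of the span and 7.12% with glia runs of at least 4 distances. The gap share at array ends (19.0%) was 6.0% for gaps of 200 bp or more, and its small difference from other distances outside the band turned from -0.83 to 0.48 percentage points. Alternatives chosen after seeing the data were interior dyads only, with 29.3% within 10 bp and 6.17% lost, glia distances over 500 bp left out (43.0%), and the lower dyad inside the span (40.2%). Leaving out each arm gave 28.4% to 28.8% within 10 bp and 42.4% to 43.2% in the band. With 1 library per cell type and unknown depth, counts of calls, depth and cell type cannot be told apart. No paired analysis was possible because each cell type has 1 library.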
